A study of Homo sapiens with 16 samples.

Results

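The genes described here are the parts of the type I interferon response that carry the signal from the cell surface to the nucleus, together with STAT3. The 9 genes, taken from the count table by symbol, are the receptor chains IFNAR1 and IFNAR2, the kinases JAK1 and TYK2, the transcription factors STAT2 and STAT3, and the interferon regulatory factors IRF1, IRF7 and IRF9. All 9 were found among the 20531 entries of the count table, each as 1 entry, and 7 of them passed the filter on low counts, the exceptions being JAK1 and IRF1. They were measured in LNCaP, a line of human prostate cancer cells that respond to androgen and are reported to lack JAK1. One set of cultures received a nonsense siRNA (NS) at 40 nM for 24 h. The other received, at the same dose, a pool of siRNAs against SLIRP, an RNA-binding protein. The study proposes that SLIRP can act as a corepressor of the androgen receptor, depending on the context. Serum-free medium followed for a further 24 h, containing either ethanol vehicle or dihydrotestosterone (DHT), an androgen, at 1 nM. The groups without DHT are NS-Veh and SLIRP-Veh, those with it are NS-1nM DHT and SLIRP-1nM DHT, and each had 4 RNA-seq libraries, made as 2 biological replicates in each of 2 experiments. Every group was thus transfected and serum-starved, and no group was left untransfected or given interferon. The NS siRNA was a single sequence and the SLIRP siRNA a pool. An effect of SLIRP loss and an effect of the siRNAs themselves therefore cannot be told apart in any comparison below.

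Type I interferons bind IFNAR1 and IFNAR2, whose cytoplasmic tails hold TYK2 and JAK1. These kinases phosphorylate STAT proteins, and STAT2 joins IRF9 in a complex called ISGF3 that binds the interferon-stimulated response element (ISRE) in the promoters of antiviral genes. STAT3 is the main effector of interleukin-6 family cytokines, IRF7 amplifies interferon production, and IRF1 drives many genes of the interferon-gamma response and is itself switched on through a gamma-activated site (GAS), an element that STAT dimers bind.

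For 7 of the 9 genes, 10 promoters were found among the RefSeq promoters (build GRCh38.p14), which run from 250 bases before to 50 bases after each start site, and those not found were IFNAR2 and IRF7. The search was for the ISRE core GAAANNGAAA and the GAS core TTCNNNGAA, where N is any base, on both strands. The GAS letters read alike on either strand, and no match of one motif overlapped a match of the other in the stretches printed here. None of the 7 genes had a promoter with the ISRE letters, which 4.38% of all 27305 genes had (3.57% of all 35116 promoters), and 2 of the 7 had one with the GAS letters, which 9.38% of all genes had (7.66% of all promoters). Those 2, IRF9 and IRF1, are shown from 200 bases before the start site up to it, with the GAS letters in capitals. IFI6, an interferon-stimulated gene chosen after its values were seen, is shown beside them because it holds the ISRE letters, here in capitals, at 3 positions. The stretches are chr14:24161065-24161264 on the plus strand for IRF9, chr5:132490774-132490973 on the minus strand for IRF1 and chr1:27672193-27672392 on the minus strand for IFI6.
IRF9: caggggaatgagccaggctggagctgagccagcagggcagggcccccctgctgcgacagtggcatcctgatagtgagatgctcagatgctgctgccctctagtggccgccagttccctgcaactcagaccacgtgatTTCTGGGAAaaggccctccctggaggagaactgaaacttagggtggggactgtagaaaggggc
IRF1: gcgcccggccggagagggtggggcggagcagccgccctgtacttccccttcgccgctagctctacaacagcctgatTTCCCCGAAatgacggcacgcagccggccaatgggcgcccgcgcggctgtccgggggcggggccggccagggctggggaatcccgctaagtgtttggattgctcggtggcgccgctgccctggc
IFI6: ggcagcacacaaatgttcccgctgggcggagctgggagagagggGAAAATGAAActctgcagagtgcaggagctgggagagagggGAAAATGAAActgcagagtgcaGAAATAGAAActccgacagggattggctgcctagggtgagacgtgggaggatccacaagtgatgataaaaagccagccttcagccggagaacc
The GAS letters began 63 bases before the start site in IRF9 and 124 bases before it in IRF1, and the match nearest the start site of IFI6 began 93 bases before it. Among 50 interferon-stimulated effector genes, 42 had a promoter in the table and 32 of these (76.2%) held the ISRE letters, against the same 4.38% of all genes. A match of letters is a description of these windows and not evidence of binding.

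The libraries held 436353 to 1689708 estimated counts, so that 3 counts, taken here as the floor of what a library can show, correspond to 1.78 to 6.95 CPM (counts per 1000000, scaled by edgeR's TMM factors). The floor covers counting error only, whereas the intervals given below come from edgeR and also hold the spread between libraries. SLIRP itself (listed as C14orf156) lay at 45.1 to 63.4 CPM in the 8 NS libraries and at 1.41 to 8.04 CPM in the 8 libraries with SLIRP siRNA, a log2 fold change of -3.89 ± 0.21 (SE; edgeR FDR 1.38e-15). All 10 LNCaP and luminal prostate markers were detected, and PTPRC, CD3E and PECAM1, which mark leukocytes and endothelium, were at 0 in all 16 libraries. Over all 10 markers of leukocytes, fibroblasts and endothelium, 4 were at 0 throughout and the sum was 19.5 to 40.9 CPM a library, most of it from COL1A1 (13.4 ± 3.91 CPM with NS and 12.9 ± 5.04 with SLIRP siRNA) and VWF (11.1 ± 3.48 and 7.51 ± 3.75), neither called (edgeR FDR 0.961 and 0.101). Summed over the LNCaP markers, the level was 6330 to 7350 CPM with NS and 4130 to 4620 CPM with SLIRP siRNA. Of the 10, 5 were called lower and 0 higher, beside 17.4% and 17.8% of all genes tested. Among the 5 were STEAP2 (lower by 1.13), FOLH1 (0.68) and HOXB13 (0.63 on the log2 scale). In vehicle alone, 6 were lower and 1 higher, KLK3 (1.11), beside 9.95% and 11.8% of all genes. In DHT alone, 6 were lower and 3 higher, KLK3 (0.37), KLK2 (0.92) and TMPRSS2 (0.50), beside 11.6% and 12.8%. The part of this shift in the results below was not tested. In bulk RNA of this kind, fewer cells that express a gene and less of its RNA per cell cannot be told apart.

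With SLIRP siRNA, IRF9 and IRF7 fell far below their NS levels, STAT3 fell slightly, STAT2 rose slightly, and IFNAR1, IFNAR2 and TYK2 showed no change that passed the test. In the comparison of all 8 SLIRP siRNA libraries with all 8 NS libraries, made by edgeR's quasi-likelihood test at a Benjamini-Hochberg FDR of 0.01, 1 of the 7 genes tested was called higher and 3 were called lower. Over all 10167 genes tested, 17.8% were called higher and 17.4% lower, so a call alone is common in this comparison. The median log2 fold change of the 7 genes was -0.25, and that of all genes tested was -0.02. DESeq2 called the same 4 genes. IRF9 and IRF7 passed the low-count filter through their NS libraries. Of the 8 SLIRP siRNA libraries, 0 and 1 reached its cutoff of 9.16 CPM. The number of calls among the genes that passed is therefore a description and no support. The share of all genes whose NS and SLIRP siRNA libraries lie apart was not counted, so such separation is also only a description below.

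**Figure D1:**
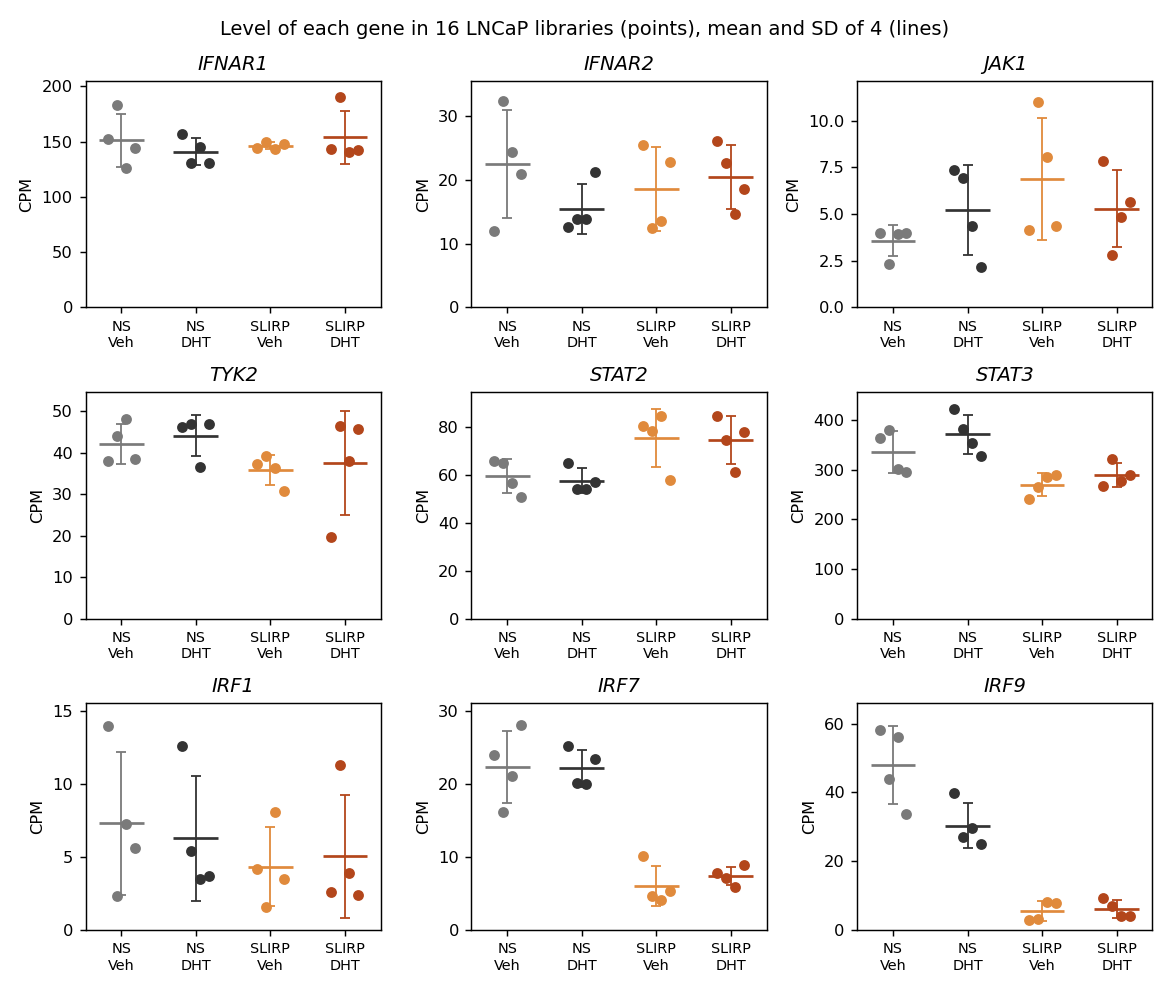
Level of each of the 9 genes in CPM (vertical axes, each from 0) in the 4 groups of 4 libraries. Points are libraries, horizontal lines are group means and bars are SDs (n = 4). IRF7 and IRF9 show NS libraries at 16.2 CPM and above and SLIRP siRNA libraries at 10.1 CPM and below, whereas the 8 NS and 8 SLIRP siRNA libraries overlap in the receptor and kinase panels.

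The receptor chains come first in the pathway. IFNAR1 (Entrez 3454, chromosome 21, 34696692 to 34732170 on hg19) was at 152, 183, 126 and 144 CPM in NS-Veh and at 157, 131, 145 and 131 CPM in NS-1nM DHT. After SLIRP knockdown IFNAR1 was at 144, 150, 143 and 148 CPM with vehicle and at 143, 190, 141 and 142 CPM with DHT. The groups overlapped throughout, and a single SLIRP-1nM DHT library, replicate 2, stood above the other 15. The log2 fold change with SLIRP siRNA over all libraries was 0.06 (95% interval -0.11 to 0.22; edgeR FDR 0.602). An IFNAR1 change beyond 0.22 on the log2 scale lies outside this interval in either direction.

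IFNAR2 (Entrez 3455, chromosome 21, 34577587 to 34637980), the chain that binds interferon most tightly, had far fewer reads. Its level was 12, 32.4, 24.4 and 20.9 CPM in NS-Veh and 12.6, 13.9, 13.9 and 21.2 CPM in NS-1nM DHT. It measured 25.5, 12.5, 13.5 and 22.8 CPM in SLIRP-Veh and 26.1, 22.6, 14.6 and 18.5 CPM in SLIRP-1nM DHT. Libraries of the same group differed from each other as much as the groups did. The log2 fold change was 0.10 (95% interval -0.30 to 0.49; edgeR FDR 0.73). IFNAR2 shares 3841 exon bases with IFNAR2-IL10RB and with IL10RB-DT on the opposite strand, and since the strandedness of the counts is not given in the sources used here, reads from these entries cannot be told apart.

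Of the receptor-bound kinases, JAK1 (Entrez 3716, chromosome 1, 65298906 to 65533437) was at the edge of detection in every library. It received 2, 1, 6 and 5 counts in NS-Veh, 7, 9, 5 and 3 counts in NS-1nM DHT, 7, 7, 6 and 5 counts in SLIRP-Veh and 6, 2, 5 and 7 counts in SLIRP-1nM DHT. No library had 0 counts, and 4 of the 16 were at or below the floor of 3 counts. The mean level was 4.39 ± 1.88 CPM with NS and 6.09 ± 2.67 CPM with SLIRP siRNA (SD, n = 8 each). This difference of 1.69 CPM was within the spread of the libraries (two-sided exact permutation test over all splits into 8 and 8, p = 0.166, or 0.286 after Benjamini-Hochberg adjustment over JAK1 and IRF1). In the vehicle libraries alone the 4 SLIRP-Veh levels (4.14 to 11 CPM) lay above the 4 NS-Veh levels (2.32 to 4.01 CPM), but these rest on 1 to 7 counts a library, and in DHT the groups overlapped. JAK1 shares 966 exon bases with LINC01359, RAVER2 and RP4-535B20.1, so part of so small a count could come from them, which was not tested.

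TYK2 (Entrez 7297, chromosome 19, 10461209 to 10491284), the other kinase of the receptor, was readily detected. With NS it was at 38, 44, 48.2 and 38.5 CPM in vehicle and at 46.1, 47, 36.6 and 46.8 CPM in DHT. With SLIRP siRNA the values were 37.3, 39.1, 36.3 and 30.7 CPM in vehicle and 19.6, 46.5, 37.9 and 45.8 CPM in DHT. The lowest library, SLIRP-1nM DHT replicate 1, stood well below the rest of its group. The log2 fold change was -0.25 (95% interval -0.51 to 0.02; edgeR FDR 0.134), which did not pass the test. Per kilobase of the annotated canonical transcript, the JAK1 level was 3.91% to 13.3% of the TYK2 level in the NS libraries (median 8.73%, n = 8) and 5.05% to 33.3% in the SLIRP siRNA libraries (median 11.3%, n = 8).

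STAT2 (Entrez 6773, chromosome 12, 56735381 to 56753987), the STAT that binds IRF9 in ISGF3, was the 1 gene of the 7 tested that was called higher. In NS-Veh it was at 66, 64.9, 56.8 and 50.6 CPM, and in NS-1nM DHT at 65, 54, 54 and 57 CPM. SLIRP-Veh libraries had 80.5, 78.3, 84.8 and 57.8 CPM, and SLIRP-1nM DHT libraries 84.8, 74.7, 61.2 and 78 CPM. All but 2 of the SLIRP siRNA libraries lay above all 8 NS libraries. The mean rose from 58.5 ± 5.96 to 75 ± 10.2 CPM (SD, n = 8 each), a log2 fold change of 0.37 ± 0.10 (SE; edgeR FDR 0.00312). Within vehicle alone and within DHT alone the size was alike, 0.38 each, but neither passed an FDR of 0.01 (edgeR FDR 0.0496 and 0.0374). With only replicates 1 and 2 or only replicates 3 and 4 of every group, the pooled rise was 0.38 and 0.36 and missed the threshold (edgeR FDR 0.0532 and 0.0565).

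STAT3 (Entrez 6774, chromosome 17, 40465342 to 40540558) was the most abundant of the 9. Its NS levels were 364, 380, 301 and 296 CPM in vehicle and 421, 381, 354 and 328 CPM in DHT. Its levels with SLIRP siRNA were 240, 265, 285 and 289 CPM in vehicle and 266, 322, 278 and 290 CPM in DHT. Within each treatment every SLIRP siRNA library lay below every NS library, although the ranges overlap when treatments are pooled. The mean fell from 353 ± 42.9 to 279 ± 23.9 CPM (SD, n = 8 each), a log2 fold change of -0.34 ± 0.08 (SE; edgeR FDR 4.29e-04). The fall passed the test in DHT (log2 fold change -0.36, edgeR FDR 0.00247) and not in vehicle (-0.29, edgeR FDR 0.0223), and the difference between treatments was itself small (-0.07 on the log2 scale, 95% interval -0.34 to 0.19). The call in DHT was lost when 1 library was left out, either NS-1nM DHT replicate 1 or 2 or SLIRP-1nM DHT replicate 1 or 3 (log2 fold changes of -0.29, -0.33, -0.32 and -0.34, edgeR FDR 0.0116 to 0.0224). With only replicates 3 and 4 the pooled fall was -0.15 (edgeR FDR 0.156), and STAT3 was called in neither treatment. With only replicates 1 and 2 STAT3 was called lower pooled and in each treatment, so the call depends on which replicates are used.

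Of the regulatory factors, IRF1 (Entrez 3659, chromosome 5, 131776132 to 131844411) was as sparse as JAK1. Its level was 14, 2.32, 7.27 and 5.62 CPM in NS-Veh, 12.6, 5.4, 3.48 and 3.66 CPM in NS-1nM DHT, 4.14, 1.57, 8.07 and 3.51 CPM in SLIRP-Veh and 2.61, 11.3, 3.88 and 2.41 CPM in SLIRP-1nM DHT. These rest on 1 to 12 counts a library, 54 in all with NS and 35 in all with SLIRP siRNA. All groups overlapped, and the mean difference of -2.11 CPM was not distinguishable at this depth (two-sided exact permutation test, p = 0.286). IRF1 also shares 2805 exon bases with IRF1-AS1 and another entry on the opposite strand.

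IRF7 (Entrez 3665, chromosome 11, 612553 to 615983), which shares no exon bases with another annotated gene, separated the siRNAs completely. The NS libraries had 24, 16.2, 21.1 and 28.1 CPM in vehicle and 25.2, 20.1, 20 and 23.4 CPM in DHT. The SLIRP siRNA libraries had 10.1, 4.7, 4.04 and 5.26 CPM in vehicle and 7.82, 7.05, 5.83 and 8.85 CPM in DHT. The highest SLIRP siRNA library was below the lowest NS library. The mean fell from 22.3 ± 3.67 to 6.7 ± 2.11 CPM (SD, n = 8 each), a log2 fold change of -1.66 ± 0.20 (SE; edgeR FDR 5.14e-08), or 0.317 of the NS level. With only replicates 1 and 2, the call was lost within each treatment (log2 fold change -1.25 with edgeR FDR 0.0939 in vehicle and -1.55 with FDR 0.0191 in DHT).

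IRF9 (Entrez 10379, chromosome 14, 24630443 to 24637252), the DNA-binding subunit of ISGF3, changed most among the 7 genes tested. It was at 58, 44, 56.2 and 33.7 CPM in NS-Veh and at 39.8, 27, 29.6 and 24.9 CPM in NS-1nM DHT. After knockdown it was at 2.96, 3.13, 8.07 and 7.89 CPM in vehicle and at 9.13, 7.05, 3.88 and 4.02 CPM in DHT. The highest of the 8 SLIRP siRNA libraries, at 9.13 CPM, was far under the lowest of the 8 NS libraries, at 24.9 CPM. The mean fell from 39.2 ± 12.8 to 5.77 ± 2.51 CPM (SD, n = 8 each), a log2 fold change of -2.77 ± 0.25 (SE; edgeR FDR 2.07e-10), or 0.146 of the NS level. Leaving out each library in turn gave -2.88 to -2.61. The SLIRP siRNA libraries had 2 to 9 counts each, near the floor, against 19 to 85 counts in the NS libraries, so the size of the fall is less certain than its direction. IRF9 shares 1757 exon bases with ENSG00000259529 on its own strand and ENSG00000289757 on the opposite strand, and reads from these cannot be told apart from its own.

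The difference between SLIRP and NS siRNA was also measured separately without and with androgen. In SLIRP-Veh against NS-Veh, 2 of the 7 genes were called, IRF7 (-1.76 ± 0.30 on the log2 scale, SE; edgeR FDR 1.60e-05) and IRF9 (-3.14 ± 0.31; FDR 2.10e-10), both lower. Over all 10684 genes tested, 11.8% were called higher and 9.95% lower. With DHT, 3 of the 7 were called in the comparison of SLIRP with NS siRNA, all lower, namely STAT3, IRF7 (-1.55 ± 0.29; edgeR FDR 6.39e-05) and IRF9 (-2.38 ± 0.32; FDR 2.40e-07). Here 12.8% of all genes were called higher and 11.6% lower. IFNAR1, IFNAR2 and TYK2 had log2 fold changes of 0.0049, -0.15 and -0.26 in vehicle and 0.12, 0.34 and -0.21 in DHT, none past the test (edgeR FDR 0.317 to 0.983). The median of the 7 genes was -0.27 in vehicle and -0.21 in DHT, beside -0.01 and -0.02 over all genes tested.

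**Figure D2:**
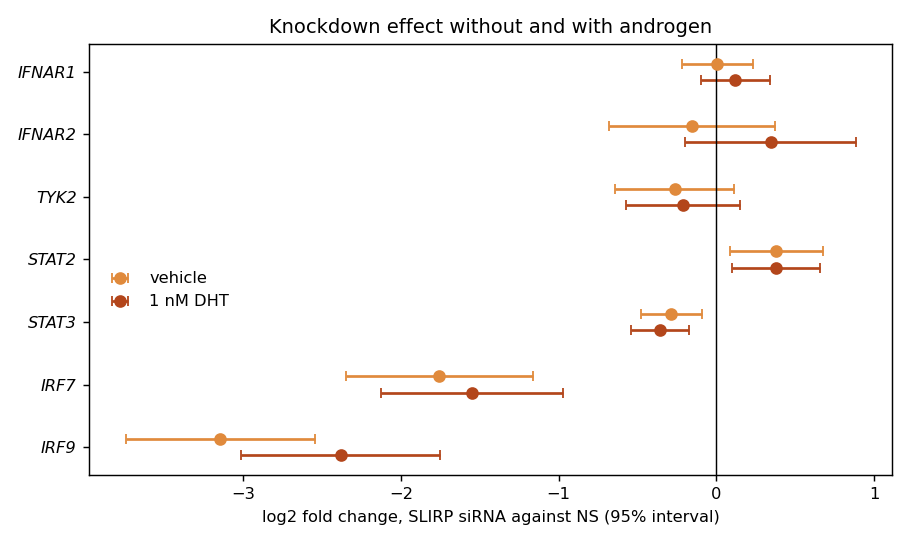
Log2 fold change of SLIRP siRNA against NS (horizontal axis) for the 7 genes tested, in vehicle (light) and in 1 nM DHT (dark), with 95% intervals from edgeR. Both intervals of IRF9 and of IRF7 lie below -0.97, whereas those of IFNAR1, IFNAR2 and TYK2 include 0.

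DHT changed none of the 7 genes past an FDR of 0.01. In NS-1nM DHT against NS-Veh, 0 of 7 were called by edgeR and 0 by DESeq2, beside 1.31% of all 10367 genes, and 1 of the 7, IRF9, had an unadjusted p under 0.05. IRF9 was lower in DHT, with means of 48 ± 11.4 CPM in NS-Veh and 30.3 ± 6.63 CPM in NS-1nM DHT (SD, n = 4 each). The log2 fold change was -0.68 ± 0.19 (SE; unadjusted p = 0.00146, edgeR FDR 0.0522), which missed the threshold, and the groups overlapped. IFNAR2 had a log2 fold change of -0.52 ± 0.26 (edgeR FDR 0.366) and STAT3 one of 0.17 ± 0.09 (FDR 0.372). In SLIRP-1nM DHT against SLIRP-Veh, 0 of 7 were called by edgeR or DESeq2, with 0 at an unadjusted p under 0.05, beside 1.17% of all genes. The log2 fold changes lay between -0.02 and 0.14, and that of IRF9 was 0.10 with a 95% interval of -0.81 to 1.01.

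The difference in DHT response between the siRNAs, tested as an interaction, was called for 0 of the 7 genes by edgeR and by DESeq2, and for 0% of all 10684 genes. At an unadjusted p under 0.05 there were 0 of the 7 and 388 of all genes. IRF9 had the greatest of the 7 differences, 0.76 ± 0.52 on the log2 scale (SE; 95% interval -0.26 to 1.79). An interval this wide, which comes with 2 to 9 counts in each SLIRP siRNA library, neither shows nor leaves out a difference of the size seen in the NS libraries. On simulated data, a difference of this kind of 2-fold was found for 48% of the genes that had it. The simulation gave all genes the same spread and lowered none of them in both SLIRP siRNA groups. This share therefore does not apply to IRF9.

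The 9 genes can be ranked against each other only per length, and the order depended on which length was used. Per kilobase of merged exons, the 8 NS libraries had STAT3 at 31.5 ± 3.83 CPM, IFNAR1 at 9.32 ± 1.18, IRF7 at 8.52 ± 1.41, STAT2 at 6.29 ± 0.64, IRF9 at 6.05 ± 1.97, TYK2 at 5.07 ± 0.552, IFNAR2 at 1.36 ± 0.518, IRF1 at 0.554 ± 0.351 and JAK1 at 0.333 ± 0.143 (SD, n = 8). In this order the ranges of neighbours overlapped, except between STAT3 and IFNAR1 and between TYK2 and IFNAR2. Per kilobase of the canonical transcript, a length chosen after the data were seen, IRF9 moved up to 24.1 ± 7.86 CPM, level with IFNAR1 at 24.1 ± 3.04 CPM, its merged exons being 6471 bases long and its canonical transcript 1626 bases. By either length STAT3 came first and JAK1 last with NS.

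**Figure D3:**
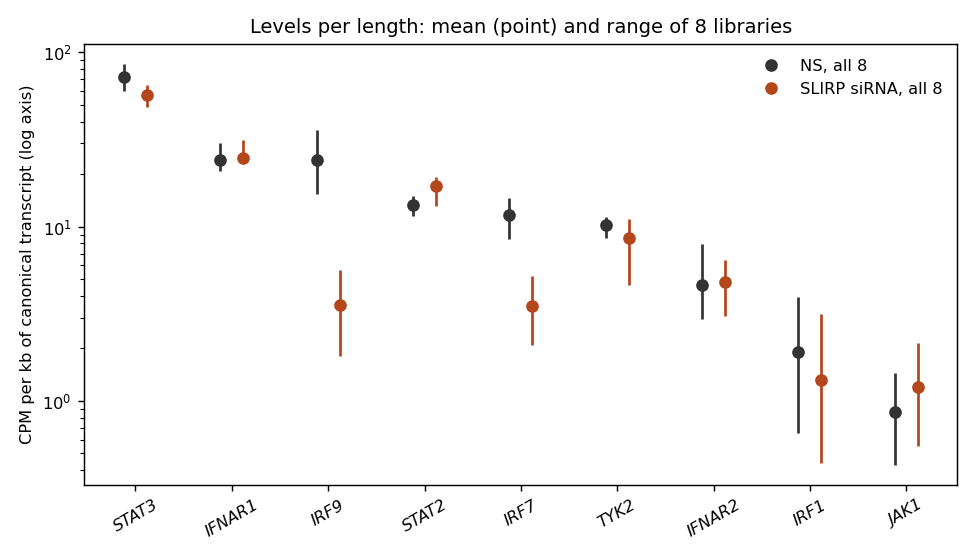
Level per kilobase of canonical transcript (vertical axis, CPM per kb, log scale) of the 9 genes, ordered by the NS mean. Points are means and bars the range over the 8 NS libraries (dark) and the 8 SLIRP siRNA libraries (red). STAT3 lies highest and JAK1 lowest with NS, and IRF9 and IRF7 drop with SLIRP siRNA from 24.1 and 11.6 to 3.55 and 3.48 CPM per kb.

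Within a library, the balance between IRF9 and STAT2 shifted. Per kilobase of canonical transcript, IRF9 was at 118% to 268% of STAT2 in the NS libraries (median 173%) and at 9.96% to 36.9% in the SLIRP siRNA libraries (median 21.4%). Per kilobase of merged exons the medians were 92% and 11.4%, so the length decides which of the genes was higher with NS, while by both lengths the ranges with NS and with SLIRP siRNA lay apart. IRF7 was at a median of 85.2% of STAT2 with NS and 21.4% with SLIRP siRNA by canonical transcript, and at 133% and 33.3% by merged exons. STAT2 was at 15.8% to 21.1% of STAT3 with NS (median 19.1%) and at 22.3% to 37.5% with SLIRP siRNA (median 31.5%) by canonical transcript, again without overlap. Each gene's change is tested above, and no further test was made of these ratios. For the receptor chains the ranges overlapped, IFNAR2 being at a median of 18.7% of IFNAR1 with NS and 18.6% with SLIRP siRNA by canonical transcript.

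A list of 23 further receptor, JAK, STAT and IRF genes was examined beside the 9. Of these, 15 were tested in the comparison of 8 with 8 libraries, and 1 rose and 5 fell, with a median log2 fold change of -0.14, where 17.8% of all genes tested rose and 17.4% fell. The shared signal-transducing chain of interleukin-6 family receptors, IL6ST, fell from 87.7 ± 13.2 to 42.2 ± 5.59 CPM (log2 fold change -1.03, edgeR FDR 4.57e-09). LIFR, its partner for leukemia inhibitory factor, fell from 67.3 ± 14.5 to 27.9 ± 8.19 CPM (-1.20, FDR 1.21e-07). The 1 gene of the list that rose was IL6R, the interleukin-6 binding chain that also pairs with IL6ST, from 27.4 ± 4.87 to 57.1 ± 10.5 CPM (1.01, FDR 1.56e-07). IRF2BP2 was also lower (-0.71, FDR 6.03e-06), whereas JAK2 (-0.23, FDR 0.179) and IRF3 (-0.14, FDR 0.511) did not pass, and IRF8 and STAT4 had 0 counts in all 16 libraries. In vehicle alone 1 of the 15 rose and 4 fell (11.8% and 9.95% over all genes), and in DHT alone 1 rose and 5 fell (12.8% and 11.6%).

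Among 17 negative regulators of JAK-STAT signalling, 14 were tested, 2 rose and 6 fell (median log2 fold change -0.40), again beside 17.8% and 17.4% of all genes, so that the share that rose was near that of all genes. The rises were the phosphatases PTPN1, which dephosphorylates JAK2 and TYK2, from 37.8 ± 6.63 to 72.6 ± 6.33 CPM (0.90, edgeR FDR 7.58e-08) and PTPN2, which acts on JAK1 and nuclear STATs, from 22.5 ± 4.42 to 40.2 ± 5.28 CPM (0.86, FDR 3.45e-06). The largest falls among the genes called were in PTPN11, the phosphatase SHP2, from 400 ± 31.8 to 232 ± 21.7 CPM (-0.78, FDR 1.13e-10), and in PIAS3 and PIAS2, members of a family of inhibitors that bind STATs (-0.59 and -0.53, FDR 3.85e-05 and 0.00103). USP18, an interferon-stimulated gene that blocks IFNAR2, was called narrowly (-0.50, FDR 0.00987). SOCS1 and SOCS3, the feedback inhibitors that STATs induce, had at most 3 counts in a library.

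**Figure D4:**
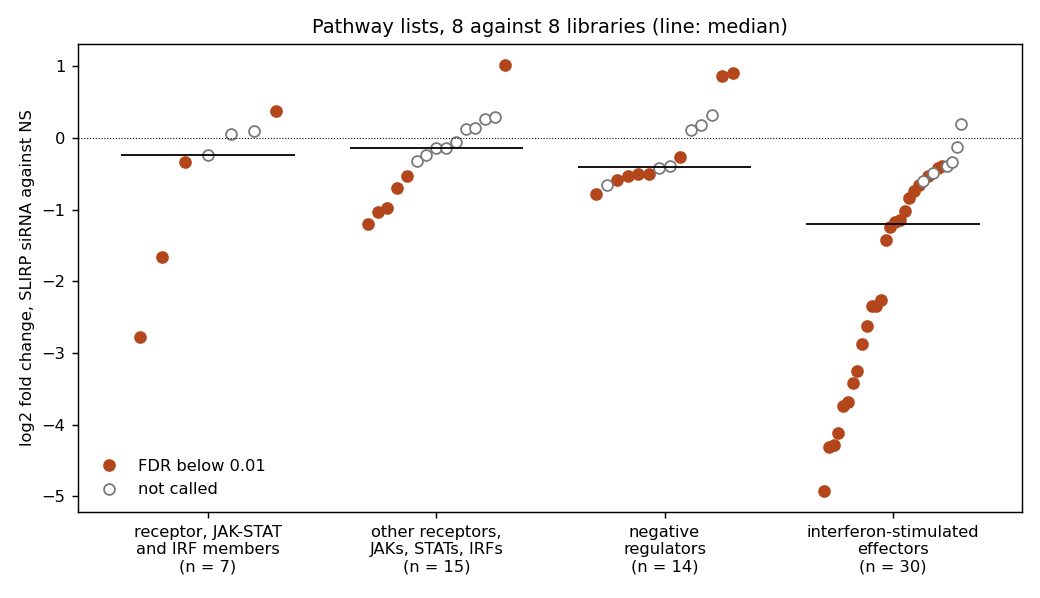
Log2 fold change of SLIRP siRNA against NS over 8 and 8 libraries (vertical axis) for each gene tested in 4 lists. Filled points passed an FDR of 0.01 in edgeR, open points did not, and lines are list medians, which run from -0.14 for the other receptors, JAKs, STATs and IRFs to -1.21 for the interferon-stimulated effectors.

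Interferons themselves were barely seen. Of 24 interferon and STAT3-activating cytokine genes, 20, among them interleukin-6, all 13 interferon-alpha genes and interferon-gamma, had 0 counts in all 16 libraries, which at this depth allows up to 1.78 to 6.95 CPM in a library. Over all libraries IFNB1 had 1 count, IL28B 1 count and IL29 3 counts. LIF, the ligand of LIFR and IL6ST, had 0 to 15 counts a library, 78 in all with NS and 65 with SLIRP siRNA, and none of the 24 passed the filter of the comparison of 8 with 8 libraries.

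The effector genes that lie downstream were lower as a list. Of 50 interferon-stimulated effectors, 30 were tested over 8 and 8 libraries, and 24 fell, 0 rose and 6 were not called (median log2 fold change -1.21), beside 17.4% of all genes that fell. For 14 of the 30, fewer than 8 SLIRP siRNA libraries reached the cutoff of the low-count filter, so these did not pass by those libraries alone and the count is a description. IRF9 and IRF7 had fitted falls greater than this median, and STAT3 a smaller one. The lowest fitted fold changes were those of the antiviral genes OASL (-4.92, edgeR FDR 6.32e-15), RSAD2 (-4.32, FDR 1.59e-10) and IFIT1 (-4.29, FDR 4.55e-16). Their 8 SLIRP siRNA libraries together held 24, 12 and 44 counts, against 783, 266 and 923 with NS, and most were near the floor, so the sizes and their order are uncertain. The summed level of the 50 genes was 2370 to 3230 CPM in the NS libraries and 1150 to 1360 CPM in the SLIRP siRNA libraries. In vehicle alone 27 of 37 tested were lower, beside 9.95% of all genes, and in DHT alone 28 of 37, beside 11.6%. The 37 also hold genes for which 0 of the 8 SLIRP siRNA libraries reached the cutoff, so both counts are descriptions too. None of the 37 was called in either DHT response. These genes were listed with earlier results of these data known, and their fall is no independent evidence on the signalling genes.

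Genes whose level followed IRF9, IRF7 or STAT3 most closely over the 16 libraries were found by Pearson correlation of log2 CPM among genes whose mean count reached 100. For IRF9 they were SLC7A11, a cystine transporter (r = 0.971), HINT3 (0.958) and SERINC5 (0.956), out of 2698 candidates. For IRF7 they were RPN2 (0.959), FAM38A (0.958) and the interferon-stimulated IFI6 (0.952), and for STAT3 they were SC5DL, an enzyme of cholesterol synthesis (0.915), TTTY15 (0.894) and KTN1 (0.88). All 9 of these were lower with SLIRP siRNA, by 0.33 (KTN1) to 3.74 (IFI6) on the log2 scale, and the 16 points of each correlation share the split between siRNAs and the library depths, so these are descriptions only. By Spearman correlation 1 of the 3 genes stayed among the first 3 for IRF9, 1 for IRF7 and 0 for STAT3.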

How the data were processed

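The study's raw count table and its labels for 16 LNCaP libraries were used. The authors deposited expected counts per gene, rounded to whole numbers, from single 50-base reads; the submitters' processing notes name CASAVA, RSEM and hg19 without versions, and the annotation and strandedness are not given in the sources used here. An upper-quartile rescaling of the same expected counts, also deposited, was not used. Of 20531 entries, 29 carry an Entrez identifier without a symbol and were kept, and 3626 were at 0 throughout. Library totals of 436353 to 1689708 set the precision.

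Tests on these counts used edgeR 4.0.16 in R 4.3.3 (TMM, filterByExpr, glmQLFit, glmQLFTest, Benjamini-Hochberg adjustment over all genes tested, FDR 0.01). SLIRP siRNA was compared with NS over 8 and 8 libraries, DHT with vehicle within the 8 NS libraries, and the rest were contrasts of a 4-group model. Intervals are 95% (1.96 SE), where SE is the log2 fold change divided by the square root of F. Log2 CPM for correlations used a prior count of 2. JAK1 and IRF1 were compared by exact permutation, added after the data were seen. The genes described and the lists were chosen with earlier results of these data known. Named were all 9 genes, SLIRP, the 3 largest rises and falls of each list that passed the FDR, the 3 genes most like each of the 3 genes with the smallest FDR, and, after their values were seen, IRF2BP2, USP18, JAK2, IRF3, SOCS1, SOCS3, KLK3, KLK2, TMPRSS2 and genes at or near 0. A few genes picked by this rule are left unnamed, though every test and count includes them. Lengths come from the GENCODE annotation on hg19 and promoters from RefSeq. On simulated data with 200 genes changed 2-fold among 10684, edgeR recovered 96% for 8 against 8 libraries with 3 false calls among 195, 81.5% in vehicle with 1 among 164, and 48% of differences in DHT response with 0 among 96. Alternatives were DESeq2 1.42.0, upper-quartile normalization, other low-count filters, an FDR of 0.05, treatment as covariate, the replicate number as a block, only the groups compared and leaving out each library, and, chosen after the data were seen, only replicates 1 and 2 or 3 and 4. Replicates of a group differed by more than sampling noise (chi-square per degree of freedom 1.2 to 2.74). The assignment of replicate numbers to the experiments is not given in the labels or methods. In both NS groups the pairs 1 with 2 and 3 with 4 had the lowest chi-square values (1.24 to 1.46, the others 1.55 to 2.19). In the SLIRP siRNA groups this held in part. The lowest value was that of 3 with 4 in SLIRP-Veh (1.2, but 2.12 for 1 with 2). In SLIRP-1nM DHT it was that of 1 with 2 (1.53, but 1.95 for 3 with 4). P-values measure the spread between these libraries, which may be partly technical. Figures used matplotlib 3.10.9 in Python 3.11.15.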

Additional observations from a re-analysis of the deposited data

Results flagged for a closer look

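In 5 of the 36 groups of 4 libraries examined, 1 library stood apart from the other 3 by Dixon's criterion, which chance alone meets in about 1 of 20 groups. IFNAR1 was at 190 CPM in SLIRP-1nM DHT replicate 2, with the others at 141 to 143 CPM. IRF1 was at 11.3 CPM in the same library, with the others at 2.41 to 3.88 CPM, which is 8 counts against 2 to 4. IFNAR2 was at 21.2 CPM in NS-1nM DHT replicate 4, with the others at 12.6 to 13.9 CPM. TYK2 was at 36.6 CPM in NS-1nM DHT replicate 3, with the others at 46.1 to 47 CPM. JAK1 was at 2.32 CPM in NS-Veh replicate 2, with the others at 3.96 to 4.01 CPM, and this value is a single count. None of the 4 genes called in the comparison of 8 with 8 libraries was among them.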

How the results depend on the processing

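IRF9 was called lower in the comparison of 8 with 8 libraries and in each treatment under every alternative in which it could be tested, and so was IRF7 except with only replicates 1 and 2 in each treatment. Requiring at least 10 counts in every library left 4 of the 9 genes, IRF7 and IRF9 not among them, and gave 2 calls pooled, 0 in vehicle and 1 in DHT, with 10, 10 and 9 interferon-stimulated genes lower. Over all 6934 genes tested in that setting, 2779, 1886 and 2094 were called in either direction. An FDR of 0.05 gave 4 calls in vehicle (3401 of 10684 over all genes), and only replicates 3 and 4 gave 2 pooled (2128 of 10360). STAT2 pooled missed the threshold with only replicates 1 and 2 (FDR 0.0532) or 3 and 4 (FDR 0.0565), where fewer libraries were tested, and in vehicle it passed without SLIRP-Veh replicate 4 (log2 fold change 0.51). Leaving out each library gave 4 members called pooled, 2 to 3 in vehicle and in DHT, and 23 to 27, 24 to 28 and 26 to 29 interferon-stimulated genes lower. Over all 10088 to 10903 genes tested, 3302 to 3549, 1797 to 2380 and 2169 to 2689 were then called in either direction. Values that changed sign were never called: IFNAR1 in vehicle (DESeq2 -0.004, upper quartile -0.009, only the groups compared -0.003, only replicates 1 and 2 -0.17, and -0.08 to 0.074 with each library left out), IFNAR2 with only replicates 3 and 4 (-0.194 pooled, -0.089 in DHT) and TYK2 in DHT with only replicates 3 and 4 (0.01). The fall of IRF9 with DHT in NS cells had FDR values of 0.0122 to 0.31. Over all genes, calls for DHT in NS cells numbered 136, against 236 without a low-count filter, 272 at an FDR of 0.05 and 91 with DESeq2, and those in SLIRP knockdown cells 125, against 220 and 309 in the first 2 of these. Without NS-Veh replicate 1 or 2 the first number was 83 or 87, and without SLIRP-Veh replicate 1 the second was 73. For other results the cause of a change was not tested.

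The replicate numbers were not taken to pair the libraries, since not every same-numbered pair correlated over 0.1. The 16 correlations were all positive, from 0.000111 to 0.201, with 6 over 0.1 (3 of the 4 between NS-Veh and NS-1nM DHT among them). In all other groups at once, 3 of 16 libraries correlated best with their own number, a stricter count than a best match in a single group. Whether libraries of the same number share a source was not tested. With the replicate number as a block, IFNAR1 in vehicle was -0.01, DHT calls in NS cells over all genes rose to 270, and the same members were called in each comparison. Depth limits JAK1, IRF1 and the knockdown levels of IRF9 and IRF7.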
